A study of Mus musculus with 16 samples.

Results

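The genes of MHC class II antigen presentation were followed through inguinal subcutaneous adipose tissue (SAT) and mesenteric visceral adipose tissue (VAT). They are H2-Ab1, H2-Aa, H2-Eb1, H2-Eb2, H2-DMa, H2-DMb1, H2-Oa, H2-Ob, Cd74 and Ciita. These 10 genes were chosen by name, and an entry of the expression table was assigned to one of them when its RefSeq transcript identifier maps to that gene symbol. They account for 26 of the 130343 transcript entries and for 10 of the 35556 gene symbols found in the table.

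All animals were male wild-type C57BL/6J mice. The 4 lean mice were kept on a normal laboratory diet, and the 4 obese mice received the high-fat, cholesterol-containing diet TD.88137 (42% of energy from fat, 0.2% cholesterol). Lean and obese mice were age-matched, and both diets ran from 10 weeks of age for 12 to 14 months. Each mouse gave 1 poly(A) RNA-seq library of SAT, with the left and right inguinal pads combined, and 1 of VAT, so that 16 libraries form 4 groups of 4. The comparisons ask how obesity changes each depot relative to its lean counterpart, and whether the 2 depots differ in that change. Total counts ran from 1256082 to 16614407 per library. The VAT libraries of lean replicate 1 (1256082 counts) and obese replicate 1 (2247737 counts) were the shallowest, where 1 count stands for 0.796 and 0.445 CPM (a count scaled to its library's total). Levels below are TMM CPM, that is, CPM corrected by the trimmed mean of M-values, and a mean ± SD is over 4 mice.

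MHC class II molecules display peptides from endocytosed proteins to CD4+ T cells. An alpha and a beta chain (in C57BL/6 mice H2-Aa with H2-Ab1) assemble on the invariant chain Cd74, which fills the peptide groove and directs the complex to endosomes. Proteases then cut the invariant chain down to its CLIP fragment, and the peptide exchange factor H2-M (H2-DMa with H2-DMb1) replaces CLIP with antigenic peptide, while H2-O (H2-Oa with H2-Ob) restrains H2-M, chiefly in B cells. Ciita is the coactivator that switches the genes on, and it acts through factors bound at the X and Y boxes of their promoters. Macrophages, dendritic cells and B cells are the main cells of adipose tissue that carry class II molecules.

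The genes lie close together. On build GRCm39 the GENCODE annotation places 8 of the 10 on chromosome 17 within 249 kb, from position 34311314 (the start of H2-Oa) to 34560386 (the end of H2-Eb2). H2-Ab1 (entry NM_207105.chr17) spans positions 34476663 to 34488393 on the plus strand, H2-Aa (NM_010378.chr17) 34493404 to 34506798 on the minus strand, H2-Eb1 (NM_010382.chr17) 34504236 to 34535648 on the plus strand and H2-DMb1 (NM_010387.chr17) 34372046 to 34379204 on the plus strand. Ciita (NM_007575.chr16) is on chromosome 16 from 10297923 to 10347694. The counted entries are spliced transcripts, with 6 exons for H2-Ab1, 5 for H2-Aa and 19 for Ciita in the GENCODE canonical model. H2-Aa and H2-Eb1 overlap over 2563 bases on opposite strands, although none of their canonical exons overlap.

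RefSeq promoter windows (build GRCm38.p6, 250 bases before to 50 after the annotated start) were at hand for 7 of the 10 genes (not for H2-Ab1, Cd74 and Ciita), and the letters of the X and Y boxes were looked for in them because these boxes are the sites through which Ciita acts. The X box was searched as AGNAAC, then 2 bases of any kind, then ATG, and the Y box as ATTGG. Both were searched on both strands, the 2 motifs did not overlap, and their letters were chosen with these promoters in view. The stretch from X box to Y box follows for the 4 genes that hold both in order, with the box letters in capitals and each sequence read 5′ to 3′ on the plus strand, which is the gene's own.
H2-Eb1 (chr17:34305771-34305816): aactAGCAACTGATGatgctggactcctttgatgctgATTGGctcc
H2-Eb2 (chr17:34325538-34325583): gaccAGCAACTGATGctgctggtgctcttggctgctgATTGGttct
H2-DMb1 (chr17:34153092-34153138): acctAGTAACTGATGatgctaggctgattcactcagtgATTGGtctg
H2-Ob (chr17:34238813-34238856): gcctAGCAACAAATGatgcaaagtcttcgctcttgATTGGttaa

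The X box letters began 92, 133, 95 and 88 bases before the annotated start of H2-Eb1, H2-Eb2, H2-DMb1 and H2-Ob, and the gap to the Y box was 22, 22, 23 and 20 bases. Among all 32851 promoter windows, the X box letters occurred on either strand in 0.895% and the Y box letters in 37.4%. Both together on the gene's strand, in this order and 20 to 45 bases apart, occurred in 6 windows, of which 4 belong to these class II genes and the others to Alb and Scgb2b20. The lower limit of this spacing equals the gap of H2-Ob. As the letters were also chosen with these promoters in view, nothing is read from this count. H2-Aa and H2-Oa held the Y box letters at positions -48 and -43 from their start, without a match to the X box letters searched, and the second of the 2 windows of H2-DMa held the Y box letters at position -198.

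**Figure D1:**
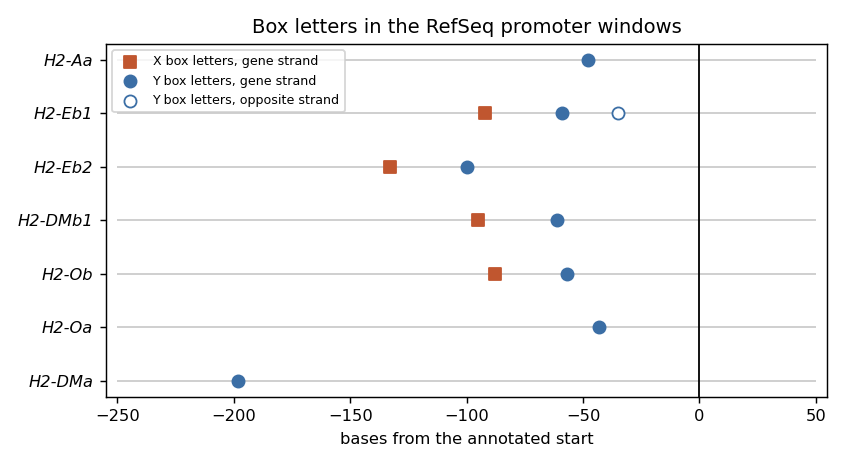
Positions of the X box letters (squares) and Y box letters (circles) in the promoter windows of 7 class II genes, in bases from the annotated start (vertical line); open symbols lie on the opposite strand. The paired letters of H2-Eb1, H2-DMb1 and H2-Ob start 88 to 95 bases and 57 to 61 bases before the start, and those of H2-Eb2 lie farther upstream.

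Of the 26 entries, 8 had no count in any library, and 10 entries, 1 for each gene, passed the filter of more than 1 CPM in at least 3 of 16 libraries. H2-Ab1, H2-Aa, H2-Eb1, H2-DMb1 and H2-Oa have a single entry each. The other genes have 2 to 9 entries, and how the authors treated reads that fit several transcripts is not stated, so that low counts of these genes are not read as low expression. The entries of H2-Eb2, H2-Oa and Ciita passed the filter through VAT libraries alone, and that of H2-Ob through all 8 VAT libraries and 1 SAT library.

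VAT from obese mice exhibited higher class II transcripts than VAT from lean mice. Calls were made by edgeR's quasi-likelihood test with Benjamini-Hochberg adjustment at an adjusted p below 0.05. In VAT 9 of the 10 entries were upregulated, against 6.84% of all 13288 tested entries (7 and 4.30% without obese replicate 4). There, 0 of the 10 were downregulated (4.08% of all entries). The median log2 fold change was 1.43 over the 10 entries and 0.02 over all tested entries. Only 1 of the 10, H2-DMb1, was upregulated in SAT, where 6.21% of all entries were, and 0 were downregulated (4.84% of all entries). The median log2 fold change in SAT was 0.33 against 0.01 over all entries. With the added requirement of a log2 fold change above 1.5, there were 5 of 10 in VAT (2.33% of all entries; 4 with counts summed per gene symbol) and 0 of 10 in SAT (1.5% of all entries). H2-Oa and Ciita reached the filter only with the obese VAT libraries, the group in which they were high, so their calls in VAT add nothing to the count. Both were also lost in several fits that left out 1 mouse, which called 7 to 9 of the 10. Of the 6 entries above 1 CPM in all 16 libraries (H2-Ab1, H2-Aa, H2-Eb1, Cd74, H2-DMb1 and H2-DMa), 5 were upregulated in VAT and 1 in SAT. With counts summed per gene symbol, the numbers upregulated stayed at 9 in VAT (6.89% of all 12185 tested genes) and 1 in SAT (6.35%). In bulk tissue, more cells of a type and more RNA per cell cannot be told apart.

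The classical chains H2-Aa and H2-Ab1 form I-A, the class II molecule on the surface of C57BL/6 cells. H2-Ab1 stood at 234, 190, 160 and 271 TMM CPM in SAT from lean mice, 282, 241, 269 and 231 in SAT from obese mice, 469, 300, 237 and 308 in VAT from lean mice and 928, 745, 774 and 905 in VAT from obese mice (replicates 1 to 4). All 4 VAT libraries from obese mice lay above every other library, and the 2 SAT groups overlapped. The log2 fold change of H2-Ab1 was 1.36 in VAT (SE 0.17, edgeR adjusted p = 1.56e-05, 2.57-fold) and 0.26 in SAT (SE 0.17, adjusted p = 0.365).

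H2-Aa, the alpha chain, stood at 572, 513, 445 and 585 TMM CPM in lean SAT, 673, 506, 780 and 647 in obese SAT, 608, 662, 483 and 656 in lean VAT and 1251, 1424, 1480 and 1987 in obese VAT. Here the lean VAT, lean SAT and obese SAT libraries shared one range, from 445 to 780, and obese VAT alone stood above it. The log2 fold change was 1.35 in VAT (SE 0.15, edgeR adjusted p = 3.03e-06, 2.55-fold) and 0.30 in SAT (SE 0.15, adjusted p = 0.209). H2-Aa ranked 54th among the 13288 tested entries by mean level in obese VAT, and 224th in lean SAT.

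H2-Eb1 encodes the beta chain of I-E. C57BL/6 mice lack a working H2-Ea, the alpha chain partner, and the 1 entry of H2-Ea had 0 counts in all 16 libraries. H2-Eb1 transcripts stood at 339, 308, 266 and 349 TMM CPM in lean SAT, 430, 335, 459 and 368 in obese SAT, 554, 445, 350 and 440 in lean VAT and 968, 1008, 1126 and 1336 in obese VAT. The obese VAT libraries again lay above all others, at a mean of 1109 ± 165 against 447 ± 83.2 in lean VAT (SD, n = 4). H2-Eb1 rose by 1.32 on the log2 scale in VAT (SE 0.14, edgeR adjusted p = 2.32e-06), while the log2 fold change in SAT was 0.34 (SE 0.14, adjusted p = 0.134). Together, H2-Ab1, H2-Aa and H2-Eb1 took 0.0822 to 0.123% of all counts in lean SAT, 0.0947 to 0.132% in obese SAT, 0.109 to 0.204% in lean VAT and 0.333 to 0.466% in obese VAT.

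Cd74, the invariant chain that escorts new class II molecules, had the same order of group means as H2-Ab1 and H2-Eb1. Its entry NM_001042605 stood at 87.7, 85.8, 72.4 and 104 TMM CPM in lean SAT, 117, 110, 120 and 91.0 in obese SAT, 219, 112, 108 and 146 in lean VAT and 335, 279, 299 and 365 in obese VAT. The obese VAT libraries did not overlap with the lean VAT libraries, of which the shallow replicate 1 was the highest. The log2 fold change was 1.15 in VAT (SE 0.18, edgeR adjusted p = 1.35e-04) and 0.33 in SAT (SE 0.17, adjusted p = 0.249). The second entry of Cd74 had no counts.

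**Figure D2:**
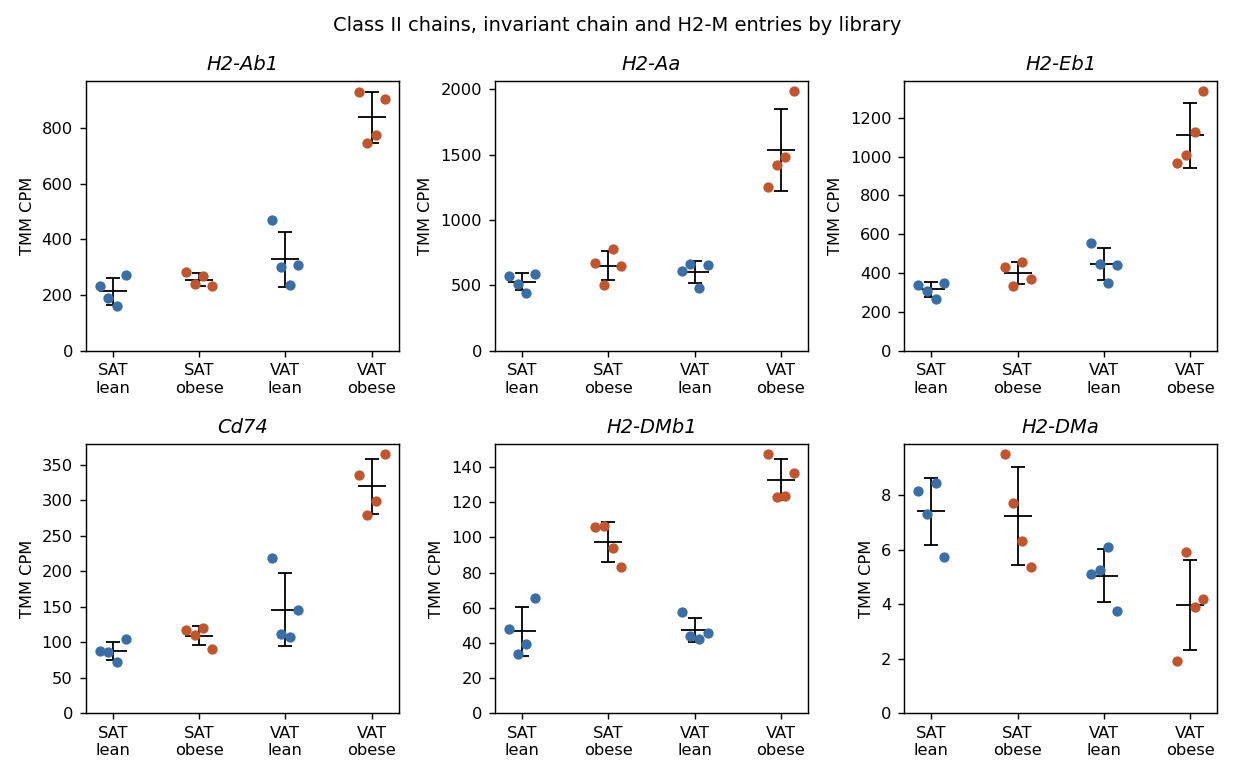
Level in each library (points, TMM CPM, linear axes from 0) of the H2-Ab1, H2-Aa, H2-Eb1, Cd74, H2-DMb1 and H2-DMa entries in the 4 groups of 4 mice, lean in blue and obese in red-brown; the long bar is the mean and the whiskers are 1 SD. The 4 obese VAT libraries lie above all lean VAT libraries in the first 5 panels, obese SAT lies above lean SAT for H2-DMb1, and H2-DMa shows neither.

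The beta chain of the peptide exchange factor H2-M was the one member upregulated in both depots. H2-DMb1 stood at 48.1, 33.5, 39.3 and 65.7 TMM CPM in lean SAT, 106, 106, 93.9 and 83.0 in obese SAT, 57.3, 44.2, 42.1 and 45.6 in lean VAT and 147, 123, 124 and 137 in obese VAT. Obese libraries lay above all lean libraries in both depots, which 9.61% of all tested entries did in SAT and 8.35% in VAT. The log2 fold change was 1.07 in SAT (SE 0.16, edgeR adjusted p = 1.43e-04, 2.10-fold) and 1.51 in VAT (SE 0.17, adjusted p = 2.45e-06, 2.85-fold), and the 2 responses differed by 0.40 (SE 0.19, adjusted p = 0.347). Within a library, the count of H2-DMb1 per count of H2-Ab1 ran from 0.177 to 0.246 in lean SAT and from 0.349 to 0.441 in obese SAT, but from 0.122 to 0.177 in lean VAT and 0.151 to 0.165 in obese VAT. The ratio was thus higher in SAT than in VAT of all 8 mice, and the obese and lean ranges were apart in SAT only. Per count of H2-Aa, lean and obese SAT were again apart (0.0653 to 0.112 and 0.120 to 0.210). The order of the depots did not hold there, with the higher ratio in VAT in 2 mice. Lean VAT (0.0667 to 0.0943) then lay within the range of lean SAT. These ratios were chosen after their values were seen and were not tested. H2-DMb1 has a close paralog, H2-DMb2, which shares 19.1% of the 75-base stretches of the H2-DMb1 transcript, so that part of its reads may have been split or set aside. Gm64535, a gene on the opposite strand, shares 15.9% of the H2-DMb1 stretches, and the strand setting of the counting is not stated. The tested H2-DMb2 entry, a noncoding transcript, stood at 0.192 to 0.949 TMM CPM (group means) and was not called in either depot.

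H2-DMa, the alpha chain of H2-M, was called in neither depot. Its tested entry (XM_017317260.chr17, a predicted transcript) stood at 7.40 ± 1.22 TMM CPM in lean SAT, 7.23 ± 1.79 in obese SAT, 5.04 ± 0.972 in lean VAT and 3.98 ± 1.64 in obese VAT (SD, n = 4). The log2 fold change was -0.05 in SAT (SE 0.24, edgeR adjusted p = 0.926) and -0.24 in VAT (SE 0.27, adjusted p = 0.655). Both curated transcripts of H2-DMa were at 0 counts in all libraries, and only predicted transcripts carried the 1079 counts of the gene. On GRCm39 H2-DMa (34338515 to 34358958, plus strand) also overlaps Brd2 on the minus strand over 3231 bases. The level of this entry is therefore not read as that of H2-DMa.

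H2-Oa and H2-Ob, the chains of the H2-M inhibitor H2-O, were near the limit of detection in SAT. H2-Ob stood at 0.247, 0.140, 0.475 and 1.06 TMM CPM in lean SAT, 0.537, 0.528, 0.688 and 0.692 in obese SAT, 5.10, 3.87, 1.07 and 2.42 in lean VAT and 4.20, 10.6, 8.69 and 12.4 in obese VAT. The lean and obese VAT libraries overlapped, and the level of 5.10 in the shallow lean replicate 1 rested on 8 counts. H2-Ob was upregulated in VAT by 1.74 on the log2 scale (SE 0.37, edgeR adjusted p = 0.00328), while in SAT the log2 fold change was 0.55 (SE 0.59, adjusted p = 0.614).

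H2-Oa stood at 0.0950 to 0.848 TMM CPM over the 8 SAT libraries, at 3.18, 1.91, 0.641 and 0.771 in lean VAT and at 4.58, 5.59, 1.81 and 6.32 in obese VAT. The log2 fold change in VAT was 1.76 (SE 0.48, edgeR adjusted p = 0.0175), and this call was lost when lean replicate 3 or 4 or obese replicate 2 or 4 was left out (adjusted p from 0.0703 to 0.0986). In the GENCODE annotation, 19.7% of the 75-base stretches of the H2-Oa transcript also occur in the antisense gene BC051537, and the strand setting of the counting is not stated.

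H2-Eb2, a second I-E beta chain gene, stood at 0 to 0.383 TMM CPM over the 8 SAT libraries. In VAT it stood at 3.18, 4.71, 1.07 and 2.75 in lean mice and at 10.3, 15.6, 7.73 and 17.3 in obese mice, without overlap. It was upregulated in VAT by 2.11 on the log2 scale (SE 0.39, edgeR adjusted p = 8.52e-04, 4.32-fold). H2-Eb2 exceeded 1 CPM in 0 of 8 SAT and 8 of 8 VAT libraries and was tested only because it was high in VAT. As a description with that limit, the log2 difference between depots was 4.06 in lean mice (SE 0.55) and 5.65 in obese mice (SE 0.39).

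Ciita, the coactivator, had the lowest counts. Its tested entry had 0 counts in all 4 lean SAT libraries, 3, 1, 3 and 1 counts in obese SAT, 3, 8, 2 and 4 in lean VAT and 1, 17, 17 and 50 in obese VAT. In TMM CPM the VAT libraries stood at 1.91, 0.477, 0.214 and 0.440 in lean mice and at 0.382, 1.40, 1.62 and 4.27 in obese mice, which overlap. The fitted log2 fold change in VAT was 2.05 (SE 0.64, edgeR adjusted p = 0.0438), and DESeq2 gave an adjusted p of 0.0846. Without obese replicate 4, which held 50 of the 85 counts of its group, the log2 fold change was 1.33 (adjusted p = 0.291). The call was also lost without lean replicate 2, 3 or 4 or obese replicate 2 or 3 (adjusted p from 0.0657 to 0.146). For this entry alone, a count of 0 over the 34978888 counts of lean SAT allows up to 0.0858 CPM (3 counts over the group, counting error only). The pooled level of the entry was 0.489 CPM in lean VAT (17 counts) and 0.136 CPM in obese SAT (8 counts), where the test against lean SAT gave an adjusted p of 0.132 in edgeR. Over all 9 entries, Ciita had 4 counts in lean SAT, 14 in obese SAT, 25 in lean VAT and 114 in obese VAT. The bound is therefore not one for the gene.

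**Figure D3:**
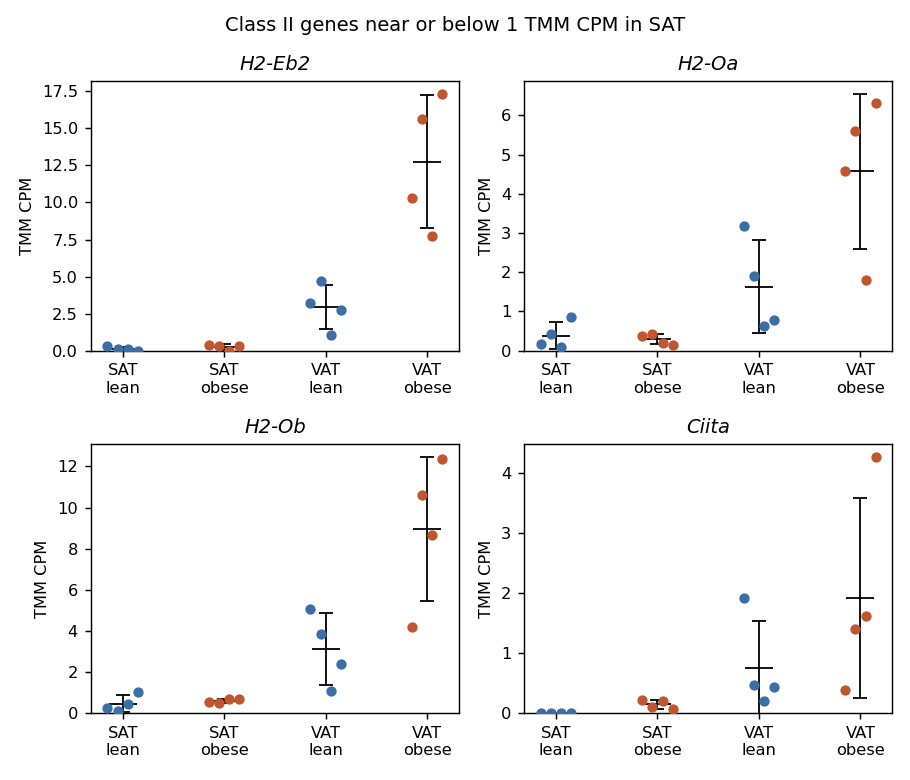
Level in each library (points, TMM CPM, linear axes from 0) of the H2-Eb2, H2-Oa, H2-Ob and Ciita entries in the 4 groups of 4 mice, lean in blue and obese in red-brown, with mean (long bar) and SD (whiskers). SAT libraries stay at or below 1.06 in every panel, lean and obese VAT are apart for H2-Eb2, and the single highest Ciita library (4.27) is obese replicate 4.

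The diet responses of the 2 depots were compared within each mouse. The response was larger in VAT for 4 of the 10 entries, against 0.888% of all tested entries, a share that moved to 0.397% without lean replicate 3, 0.447% without lean replicate 4, 0.570% without obese replicate 2 and 0.354% without obese replicate 4 (also 4 with counts summed per gene symbol, against 0.854%). The difference in log2 fold change was 1.11 for H2-Ab1 (SE 0.17, edgeR adjusted p = 6.95e-04), 1.05 for H2-Aa (SE 0.17, adjusted p = 0.00106), 0.99 for H2-Eb1 (SE 0.16, adjusted p = 0.00127) and 0.86 for Cd74 (SE 0.20, adjusted p = 0.0205). Cd74 was lost without the block for the mouse (adjusted p = 0.111) and when lean replicate 2, 3 or 4 or obese replicate 1 or 4 was left out (adjusted p from 0.0539 to 0.106). For H2-Eb2, H2-Oa and H2-Ob the differences of 1.60 (SE 0.92), 1.80 (SE 0.90) and 1.18 (SE 0.73) were larger, but their errors were wide and none was called. The differences of H2-DMb1 (0.40, SE 0.19), H2-DMa (-0.20, SE 0.36) and Ciita (-2.68, fitted against a lean SAT group at 0 counts, and 0.062 with counts summed per gene symbol) were not called either.

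**Figure D4:**
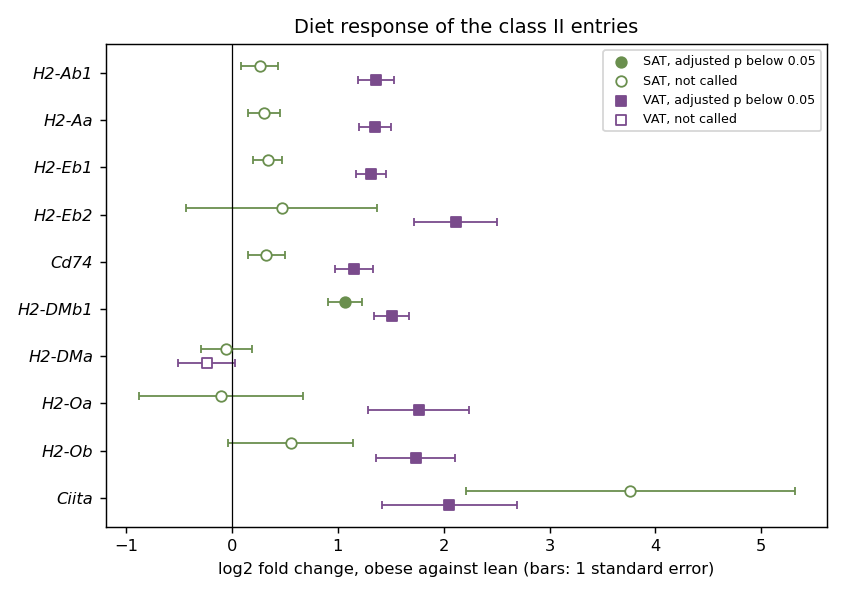
Log2 fold change of obese against lean mice for the 10 tested class II entries, in SAT (circles) and VAT (squares), with bars of 1 standard error; filled symbols have an adjusted p below 0.05. VAT values of 9 entries lie between 1.15 and 2.11, and in SAT only H2-DMb1 (1.07) is filled; the SAT value of Ciita rests on a lean group at 0 counts.

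The depots also differed at baseline. In lean mice, 7 of the 10 entries were higher in VAT than in SAT of the same mice (7.98% of all tested entries were), and in obese mice 9 were (15.9% of all tested entries, 10.4% without obese replicate 4); counts summed per gene symbol gave 7 and 9 (8.67% and 16.3% of all tested genes). H2-Eb2, H2-Oa and Ciita were tested only because they were high in VAT, and H2-Ob nearly so, which fixed much of these counts in advance. Of the 6 entries above 1 CPM in all 16 libraries, 3 were higher in VAT in lean mice and 5 in obese mice. The 4 of 10 entries past a log2 difference of 1.5 in lean mice (3.75% of all tested entries) were those same 4 genes, which also made up 4 of the 6 in obese mice (6.3%), and nothing is read from either count. In lean mice the log2 difference between depots was 0.60 for H2-Ab1 (SE 0.12, edgeR adjusted p = 9.35e-04), 0.49 for H2-Eb1 (SE 0.11, adjusted p = 0.00417) and 0.68 for Cd74 (SE 0.14, adjusted p = 0.00154). H2-Aa (0.19, SE 0.12, adjusted p = 0.336) and H2-DMb1 (0.05, SE 0.14, adjusted p = 0.869) were not called. In obese mice the difference reached 1.71 for H2-Ab1 (SE 0.12, adjusted p = 3.63e-10), 1.23 for H2-Aa (SE 0.12, adjusted p = 5.90e-08) and 1.55 for Cd74 (SE 0.14, adjusted p = 2.26e-08), and H2-DMa was the only entry lower in VAT (-0.74, SE 0.25, adjusted p = 0.0293; 13.5% of all tested entries were lower). Without lean replicate 1, or without both mice that had a shallow VAT library, H2-Oa and Ciita were no longer called in lean mice, and H2-Oa was also lost without lean replicate 2 or 3 and with limma voom (adjusted p = 0.0531). In obese mice, H2-DMb1 (0.45, SE 0.13, adjusted p = 0.0135) was lost without obese replicate 1 (adjusted p = 0.0574) or 4 (adjusted p = 0.107) and without the filter on low counts (adjusted p = 0.124). H2-DMa was lost without obese replicate 1 (adjusted p = 0.118) or 3 (adjusted p = 0.0761), without both shallow mice (adjusted p = 0.0952) and with library totals in place of TMM (log2 difference -0.42, adjusted p = 0.215).

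The proportion of the 2 chains of I-A was compared within each mouse. H2-Aa gave 2.16 to 2.78 counts per count of H2-Ab1 in lean SAT and 2.10 to 2.90 in obese SAT, 1.29 to 2.204 in lean VAT and 1.35 to 2.195 in obese VAT. The ranges overlapped between depots, and within each mouse the ratio was lower in VAT (8 of 8). The lowest ratio of each VAT group was that of its shallow replicate 1 (1.29 and 1.35), and the other 6 VAT libraries stood at 1.91 or above. H2-Eb1 per H2-Aa, in turn, was 0.592 to 0.601 in lean SAT, 0.568 to 0.662 in obese SAT, 0.670 to 0.911 in lean VAT and 0.673 to 0.774 in obese VAT, higher in VAT in 8 of 8 mice. These ratios were chosen after their values were seen and were not tested. Per kilobase of the canonical transcript, the levels of genes with 1 entry in obese VAT were 1335 TMM CPM for H2-Aa, 679 for H2-Ab1, 641 for H2-Eb1, 92.8 for H2-DMb1 and 3.72 for H2-Oa, and H2-Aa stood above H2-Ab1 in every group mean.

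Endosomal processing of antigen and of the invariant chain was described by 13 genes, of which 11 were tested with 1 entry each. Of these, 7 of 11 entries were upregulated in SAT (6.21% of all tested entries were) and 9 of 11 in VAT (6.84%), with a median log2 fold change of 0.74 and 0.70 (0.01 and 0.02 over all entries). Ifi30, the thiol reductase GILT that opens disulfide bonds of antigens, stood at 34.1 ± 5.27 TMM CPM in lean SAT, 60.3 ± 6.22 in obese SAT, 61.5 ± 7.57 in lean VAT and 195 ± 49.4 in obese VAT. It rose by 0.83 in SAT (SE 0.16, edgeR adjusted p = 0.00153) and by 1.68 in VAT (SE 0.16, adjusted p = 3.75e-07), and it was the only entry of this list whose response differed between depots (0.81, SE 0.20, adjusted p = 0.0379). Ctss, the cathepsin that completes the cutting of the invariant chain, went from 1.72 ± 0.848 to 3.64 ± 0.855 TMM CPM in SAT (log2 1.20, SE 0.31, adjusted p = 0.0132) and from 2.12 ± 0.776 to 10.3 ± 1.84 in VAT (log2 2.17, SE 0.29, adjusted p = 2.88e-05); the gene has 3 entries. Lgmn, Ctsl, Ctsb, Ctsd and Cst3, the last a cathepsin inhibitor, were called in both depots with log2 fold changes of 0.41 to 1.27 in SAT and 0.44 to 1.49 in VAT. Ctsz (0.69) and Marchf1 (1.42), the ubiquitin ligase that removes class II molecules from the surface, were called in VAT. The count in SAT fell to 3 without lean replicate 2 or 3 and with library totals in place of TMM, and to 4 without obese replicate 3. In VAT it fell to 5 without lean replicate 2 or 3, to 6 without lean replicate 4, and to 4 without obese replicate 4 or with the 8 VAT libraries alone.

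A list of class II transcription factors, interferon gamma with its receptor chains and kinases, and the cytokine Il10 was tested in few entries. Of 18 genes, 13 were tested in 16 entries. In VAT 2 of 16 entries were upregulated (6.84% of all tested entries were), and in SAT 0 (6.21%; 2 at an unadjusted edgeR p below 0.05, and 0 by DESeq2). Spi1 (PU.1, log2 1.02, SE 0.28, edgeR adjusted p = 0.0212) and the interferon gamma receptor chain Ifngr2 (log2 0.51, SE 0.14, adjusted p = 0.0193) were upregulated in VAT, 1 entry of Jak1 was downregulated in SAT (log2 -1.05, SE 0.31, adjusted p = 0.0322), and the median log2 fold change was 0.09 in SAT and 0.49 in VAT (0.01 and 0.02 over all entries). Over the alternatives, 0 (without obese replicate 4) to 3 entries were upregulated in VAT, and 1 without lean replicate 3 or 4 or obese replicate 1, 2 or 3. Nfya, Nfyc, Creb1 and Irf4 had between 0 and 2 counts in every group, and Nfya, Nfyc and Creb1 have 12 to 14 entries each, so they are not read as absent. Ifng had 5, 22, 6 and 27 counts in lean SAT, obese SAT, lean VAT and obese VAT.

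Costimulators and T cell partners, which engage T cells beside the class II complex, were measured at low levels. Of 11 genes, 8 were tested in 9 entries, and 4 entries were upregulated in VAT (6.84% of all tested entries were) and 0 in SAT (6.21%; 3 at an unadjusted edgeR p below 0.05, and 1 by DESeq2). With so few entries, 0 is near that share. Those in VAT were Cd86 (log2 1.44, SE 0.40, edgeR adjusted p = 0.0204), the ligand Icosl (log2 0.80, SE 0.23, adjusted p = 0.0232), Cd40lg (log2 1.55, SE 0.42, adjusted p = 0.0166) and Lag3, an inhibitory receptor that binds class II molecules (log2 1.01, SE 0.24, adjusted p = 0.00674). None of the 4 passed the test of the difference between depots. Their number in VAT fell to 1 without lean replicate 3 or obese replicate 4 and to 2 without lean replicate 2 or 4.

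Markers of the cells that carry class II molecules and of other cells were set beside these results, to be read against the shares of all tested entries that were upregulated (6.21% in SAT and 6.84% in VAT) or downregulated (4.84% and 4.08%). In lists of 5 to 14 entries, a count of 0 or 1 lies near those shares. The summed macrophage markers ran from 1410 to 2023 TMM CPM in lean SAT, 2279 to 3225 in obese SAT, 2471 to 3227 in lean VAT and 5512 to 7851 in obese VAT, and 6 of 10 tested entries were upregulated in SAT and 8 of 10 in VAT. The B cell markers ran from 20.3 to 25.8, 13.7 to 52.6, 125 to 799 and 772 to 1993 in the same order, with Jchain the largest single entry in both VAT groups and 0 of 10 entries upregulated in SAT and 5 of 10 in VAT. Markers of lipid-associated macrophages were upregulated in 3 of 9 entries in SAT and 8 of 9 in VAT, among them Gpnmb (log2 4.06 in VAT, SE 0.43) and Itgax (log2 3.16, SE 0.32), while Lpl, which adipocytes also express, was lower in both. Lpl made up most of their sum, which ran from 44610 to 47718 in lean SAT, 34534 to 37598 in obese SAT, 21049 to 28799 in lean VAT and 16097 to 19031 in obese VAT. The dendritic cell markers ran from 38.7 to 50.7, 46.0 to 60.0, 46.5 to 59.9 and 48.1 to 87.7, with 0 of 8 upregulated in SAT and 3 of 8 (Ccr7, Flt3 and Xcr1) in VAT. The T cell markers, whose cells do not carry class II molecules in mice, ran from 6.57 to 9.82, 8.34 to 21.3, 21.0 to 43.9 and 63.9 to 107, with 0 of 6 upregulated in SAT and 3 of 6 in VAT. The adipocyte markers ran from 40740 to 57611, 36999 to 52020, 20826 to 34272 and 15196 to 25969, with 6 of 14 entries downregulated in VAT and 0 in SAT. Of the intestinal epithelium markers, which a mesenteric dissection could carry, 0 of 6 entries were upregulated and 1 (Muc2, log2 -1.37) was downregulated in VAT, with sums of 18.5 to 65.8 in lean VAT and 18.9 to 26.0 in obese VAT. Of the endothelium markers, 1 of 5 entries was upregulated in SAT and 0 of 5 in VAT. Adgre1, a macrophage marker, was near 0 (2 to 5 counts per group) and has 4 entries. At an unadjusted edgeR p below 0.05, 0 of the B cell, 3 of the dendritic cell and 2 of the T cell entries were higher in SAT. The part of these cell types in the class II results was not tested.

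Over the 16 libraries, which share groups and depth, the correlation of log2 levels with the summed macrophage markers was 0.95 for H2-Aa and 0.96 for H2-Eb1, with the summed B cell markers 0.75 and 0.86, and with the markers of T cells 0.85 and 0.91. In the 8 VAT libraries H2-Aa had 0.99 with the macrophage, 0.81 with the B cell and 0.95 with the T cell markers, and H2-Eb1 had 0.96, 0.87 and 0.98. H2-Ab1 had 0.92, 0.94 and 0.96 and Cd74 had 0.87, 0.92 and 0.95, both lowest with the macrophage markers. H2-Eb2, H2-Oa and H2-Ob were tested because they were high in VAT, where the B cell markers were also higher, so that their values over 16 libraries were largely set by the filter. For H2-Eb2, H2-Oa and H2-Ob it was 0.96, 0.92 and 0.93 with the B cell markers and 0.87, 0.83 and 0.87 with the macrophage markers, and it was 0.95, 0.86 and 0.92 with the markers of T cells. This order did not hold throughout: in the 8 VAT libraries H2-Eb2 had 0.89 with the B cell and 0.96 with the macrophage markers, and H2-Ob had 0.81 and 0.86. After the mean of each group was removed, H2-Aa still had a correlation of 0.89 with the macrophage markers and 0.33 with the B cell markers, H2-Ab1 had 0.45 and 0.68, H2-Eb2 0.36 and 0.57, H2-Oa 0.53 and 0.58, and H2-Ob 0.56 and 0.40. Over 16 libraries H2-DMb1 had 0.41 with the B cell and 0.78 with the macrophage markers, and in the 8 VAT libraries 0.88 and 0.94, while H2-DMa had -0.74 and -0.64 over 16 libraries.

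**Figure D5:**
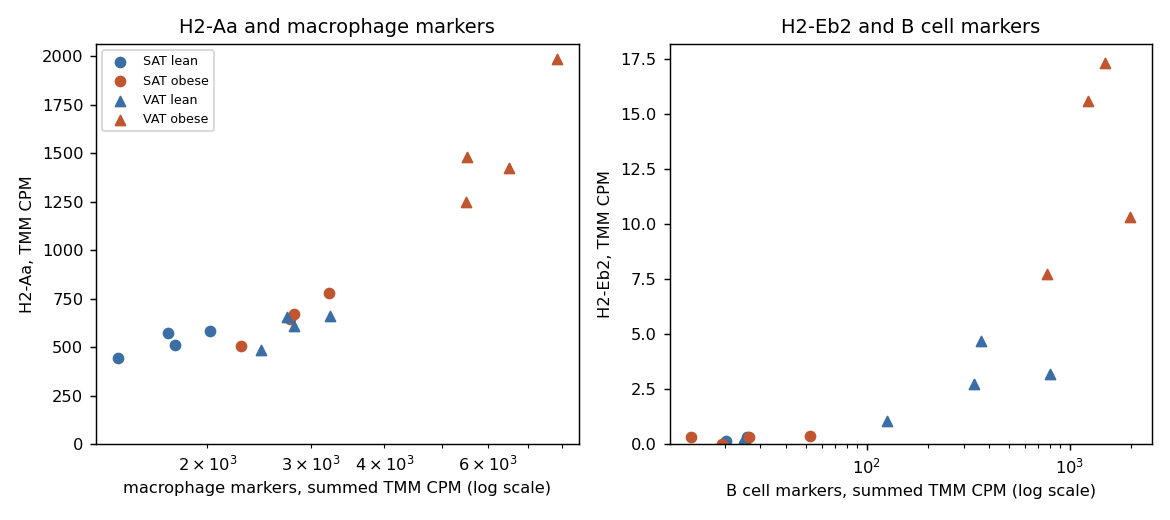
Left, H2-Aa (TMM CPM) against the summed macrophage markers; right, H2-Eb2 (TMM CPM) against the summed B cell markers; each point is 1 of 16 libraries (circles SAT, triangles VAT, lean in blue, obese in red-brown), with the marker sums on log axes. H2-Aa lies between 445 and 780 in the 12 libraries other than obese VAT, and H2-Eb2 stays at or below 0.383 in all SAT libraries.

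Among tested entries outside the class II genes, the 5 with the profile most like the mean of H2-Ab1, H2-Aa and H2-Eb1 over 16 libraries were Plxnc1 (r = 0.99), Ly86 (0.98), Pld4 (0.98), C1qb (0.97) and Arl4c (0.97). Plxnc1 encodes a semaphorin receptor, Ly86 the secreted protein MD-1, Pld4 a lysosomal nuclease of myeloid cells, C1qb a chain of complement C1q and Arl4c a small GTPase. C1qb, for example, stood at 127 ± 24.6, 197 ± 23.2, 185 ± 23.2 and 518 ± 72.3 TMM CPM in lean SAT, obese SAT, lean VAT and obese VAT. Within the groups, the correlations of the 5 were 0.76 to 0.92. Among the class II genes, Cd74 had a correlation of 0.97 with this profile, H2-Ob, H2-Eb2, H2-Oa and Ciita 0.84 to 0.88, H2-DMb1 0.76 and H2-DMa -0.67.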

How the data were processed

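RNA was measured in SAT and VAT of 8 mice. The authors trimmed the reads (Trim Galore 0.6.6 per the submitters' processing notes, keeping reads of 75 bases or more), aligned them to GRCm39 with HISAT2 2.2.0 and counted them per RefSeq transcript with HTSeq 0.13.5; the handling of shared reads and of strand is not given in the sources used here. The deposited table holds raw counts and CPM, scaled by the authors to each library's total without a TMM factor; all 32 columns were used, and the tests used the counts. Symbols came from RefSeq identifiers (82.0% of entries), and the promoter and position annotations from RefSeq and GENCODE.

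Entries above 1 CPM in at least 3 libraries (13288) were tested by the quasi-likelihood method of edgeR 4.0.16 (R 4.3.3), with legacy=TRUE, TMM scaling and Benjamini-Hochberg adjustment at 0.05. Diets were compared within depots over 16 libraries, and depots with the mouse as a block. SAT and VAT of one mouse were paired by the labels (correlation of deviations -0.009 to 0.173 in 8 mice). Summing counts per symbol, other scalings and filters, DESeq2 1.42.0, limma 3.58.1 voom, a replicate block and leaving out mice were alternatives. Pairs of libraries within a group differed by at least 7.98 chi-square per degree of freedom. In simulated data with 200 entries of 13288 changed by 2 on the log2 scale, 100% were recovered for the diet response in SAT, 99.5% in VAT and 96% for the difference. The changed entries were drawn from those with higher counts, with the same spread for every entry and no effect of the mouse. The recovery therefore does not apply to smaller changes or to entries at low counts.

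The genes, lists and tests were chosen with earlier results of these data known. Named genes are all members, list members called in either depot, markers beside a result and the 5 entries most like the class II chains (log2 TMM CPM, prior count 2). Lists, with the markers, were written by hand.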

Additional observations from a re-analysis of the deposited data

Results flagged for a closer look

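The diet response differed between depots, by the test of the difference itself, for H2-Ab1 (VAT minus SAT 1.11 on the log2 scale), H2-Aa (1.05), H2-Eb1 (0.99) and Cd74 (0.86). Ciita in VAT of lean replicate 1 (1.91 TMM CPM, 3 counts in the shallowest library) lay apart from the other 3 libraries of its group by Dixon's test. It was the only one of 40 groups of 4 libraries to do so, and chance alone flags about 2 of 40.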

How the results depend on the processing

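Of 914 recomputed single-gene values, 864 kept their direction and side of the threshold, 34 lost their call, 0 gained one, and 16 changed sign, none of which was called as reported. With each mouse left out in turn, the number of members upregulated ranged from 7 to 9 in the VAT diet response, from 3 to 4 in the difference, and from 5 to 7 and 8 to 9 in the depot comparisons of lean and obese mice, and stayed at 1 in the SAT diet response. Leaving out both mice with a shallow VAT library, an alternative chosen after seeing the data, gave 9, 4, 5, 9 and 1 in this order. The sign changed with limma voom for H2-Eb2 (-0.030) and H2-Oa (0.094) in SAT and for the difference of Ciita (0.36, and 0.062 with counts summed per gene symbol). It changed without both shallow mice for the difference of H2-DMa (0.011) and for H2-DMb1 between the depots of lean mice (-0.013). With each mouse left out, H2-DMa in SAT ranged from -0.23 to 0.065, H2-Oa in SAT from -0.47 to 0.43, the difference of H2-DMa from -0.37 to 0.030 and H2-DMb1 between the depots of lean mice from -0.071 to 0.27. The cause was not tested. Replicate numbers name different mice in the 2 diets. Same-numbered libraries of 2 diets had a median correlation of deviations of 0.068 (-0.0942 to 0.173), and different-numbered ones -0.017. The median for the 2 depots of the same mouse was 0.076. What same-numbered libraries share was not tested. With the replicate block, Ciita in VAT lost its call (edgeR adjusted p = 0.0736). It also did so with the 8 VAT libraries alone (0.0596) and with library totals in place of TMM (0.0568). Library totals moved the median of all entries by over 0.1 in 4 comparisons, to -0.20 (SAT), 0.23 (difference), 0.15 (depots, lean) and 0.37 (depots, obese), and the share of called entries that were higher from 56.2 to 21.2%, 40.8 to 77.9%, 53.9 to 69.95% and 54.2 to 82.4%. No member changed direction under it. The share of all entries upregulated ran from 1.99 to 7.87% (SAT) and 1.95 to 8.78% (VAT), from 0.233 to 2.71% (difference, highest with library totals), from 2.33 to 10.7% (depots, lean) and from 4.03 to 29.8% (depots, obese) over the alternatives, with the lowest values in the fits without a filter on low counts. Depth limits H2-Eb2, H2-Oa, H2-Ob and Ciita, whose SAT libraries held at most 10 counts each.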
